A study of Rattus norvegicus with 15 samples.

Results

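Expression was followed in rat liver for 10 antioxidant genes, namely the NRF2 targets Nqo1, Hmox1, Gclc, Gclm, Txnrd1 and Srxn1 and the antioxidant enzymes Cat, Sod1, Sod2 and Gpx1. They were chosen by name, as the rows of the count table whose gene symbol equals the member. Of the 10, 9 were found among the 32623 genes of the table, and these 9 were among the 14417 genes that passed the filter on low counts. The expression of Srxn1 was not analysed here.

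The livers came from age-matched male Wistar rats. Control rats received no treatment (n = 4 of the 5 in the sample labels, replicates 2 to 5). The authors left out a control that stood apart from the other 4 on principal components, so the control spread may be understated. Rats of the cirrhosis group (n = 5) inhaled CCl4 for 12 weeks with phenobarbital at 0.35 g/L in the drinking water. Rats of the cirrhosis & eplerenone group (n = 5) had the same exposure and received eplerenone, a blocker of the mineralocorticoid receptor, at 100 mg/kg with hazelnut spread from week 8 on. CCl4-exposed livers were taken 7 to 10 days after the last CCl4 dose, so the values describe livers in which the acute exposure had ended. All CCl4-exposed rats also drank phenobarbital and no control rat did, so CCl4 and phenobarbital cannot be told apart. Rats for sequencing had been picked by the phenotypical success of the treatments, which limits how far the groups stand for all treated animals. Each sample of a group was a different rat.

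NRF2, encoded by Nfe2l2, is a transcription factor that the adaptor KEAP1 keeps low in unstressed cells. Oxidants and electrophiles release it, and with a small MAF protein it binds antioxidant response elements (ARE) near genes for quinone reduction, glutathione synthesis and thioredoxin recycling. Catalase, superoxide dismutases and glutathione peroxidase remove hydrogen peroxide and superoxide in hepatocytes and are less tightly tied to NRF2.

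The ARE core was searched in RefSeq promoters of the GRCr8 build, 250 bases before to 50 after each gene's start. The count table uses another build, rn6, so these positions were not joined to it. The letters TGACNNNGC were searched on both strands. Promoters were found for 9 of the 10 genes, 10 promoters in all as Txnrd1 had 2. The gene without a promoter was Hmox1, so it was not searched, while Srxn1 was. The motif was in 1 promoter each of 3 genes (1 of the 2 for Txnrd1), against 12.1% of all 33469 promoters. These windows are matches of letters only, and binding of NRF2 to them was not tested. Capitals mark the motif and each line reads 5′ to 3′ on the strand that holds it, which is opposite to the gene.
Gclm, chr2:213031953-213031981, minus strand: tggaagacaaTGACTAAGCagaaaccgca
Txnrd1, chr7:22755964-22755992, plus strand: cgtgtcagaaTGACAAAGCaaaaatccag
Sod2, chr1:50050185-50050213, plus strand: agctaggcgcTGACCCTGCcggcagcgcc
None of the 3 overlaps the related AP-1 letters TGANTCA, which 7.33% of all promoters held. For the other genes with a promoter the search says only that these letters are not in this window, and elements further away were not searched.

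Counted reads ranged from 16157491 to 21574767 per rat, and 3 counts, taken as the lower limit of detection, equalled 0.121 to 0.191 FPM (counts per 1000000 reads of the TMM-scaled library). On the first principal component of the 500 most variable genes (66.6% of their variance) the controls lay between 44.3 and 50.6 and cirrhosis replicates 1 to 4 between -47.7 and -38.0. Cirrhosis replicate 5 lay apart from its group at 13. The cirrhosis & eplerenone rats spread from -42.6 for replicate 3 to 26.8 for replicate 2. Each rat's label holds a number after a group letter, 15 or 20 for the CCl4-exposed rats and 13 or 16 for the controls. Its meaning is not given in the sources used here, and between exposed and control rats the number and the exposure cannot be told apart. The log2FC between cirrhosis & eplerenone and cirrhosis within label numbers 15 and 20 is given for each gene, and values without cirrhosis replicate 5 are given for Cat, Nqo1, Gclc and Gclm, whose log2FC changed most without it.

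Markers of some cell types differed between the groups, and their part in the results below was not tested. The summed level of 10 hepatocyte markers was 184300 to 214800 FPM in control, 141000 to 199800 in cirrhosis and 110600 to 202600 under eplerenone. In cirrhosis 2 of the 10, Fga and Hnf4a, fell. By the call rule given below, 13.4% of all genes rose and 6.67% fell in cirrhosis. In value 8 of the 10 were lower and 2 higher, Apoa1 and Tf (log2FC 0.74 and 0.59, neither called). Of 7 stellate cell and myofibroblast markers 5 rose in cirrhosis (Col1a1, Col3a1, Acta2, Des and Dcn). In value 6 of the 7 were higher and 1 lower, Lrat (log2FC -1.09, not called). The 7 summed to 144.9 to 240.5, 267.9 to 499.2 and 385.2 to 498.5 FPM in control, cirrhosis and cirrhosis & eplerenone. All 5 cholangiocyte markers (Krt19, Krt7, Epcam, Sox9 and Spp1) rose, from sums of 13.9 to 22.3 FPM in control to 41.5 to 133.9 in cirrhosis. Of 5 tested endothelial markers 1 rose in cirrhosis, Vwf, and 1 fell, Kdr (log2FC 2.69 and -1.10). The endothelial sums overlapped, at 151.9 to 180.2 FPM in control and 104.4 to 255.2 in cirrhosis. None of 3 erythroid markers was called, and their sums overlapped too (475.7 to 1278 and 233.1 to 2437 FPM). The hepatocyte, stellate and cholangiocyte markers were above 0 in every rat. All markers named here were named after their values were seen. In whole liver, fewer cells of a type and less RNA per cell cannot be told apart.

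Between control and cirrhosis, 1 of the 9 genes was differentially expressed (DEG) and it fell. This was Cat. A DEG had an FDR, that is a Benjamini-Hochberg adjusted p over all genes tested, below 0.05 in both edgeR and DESeq2. The background share was 20.1% of all genes, 13.4% higher and 6.67% lower, and 1 of 9 is not above it. The median log2FC of the 9 genes was 0.0036 against -0.0115 over all genes. Groups did not overlap for 1 gene, Cat, against 20.2% of all genes.

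**Figure D1:**
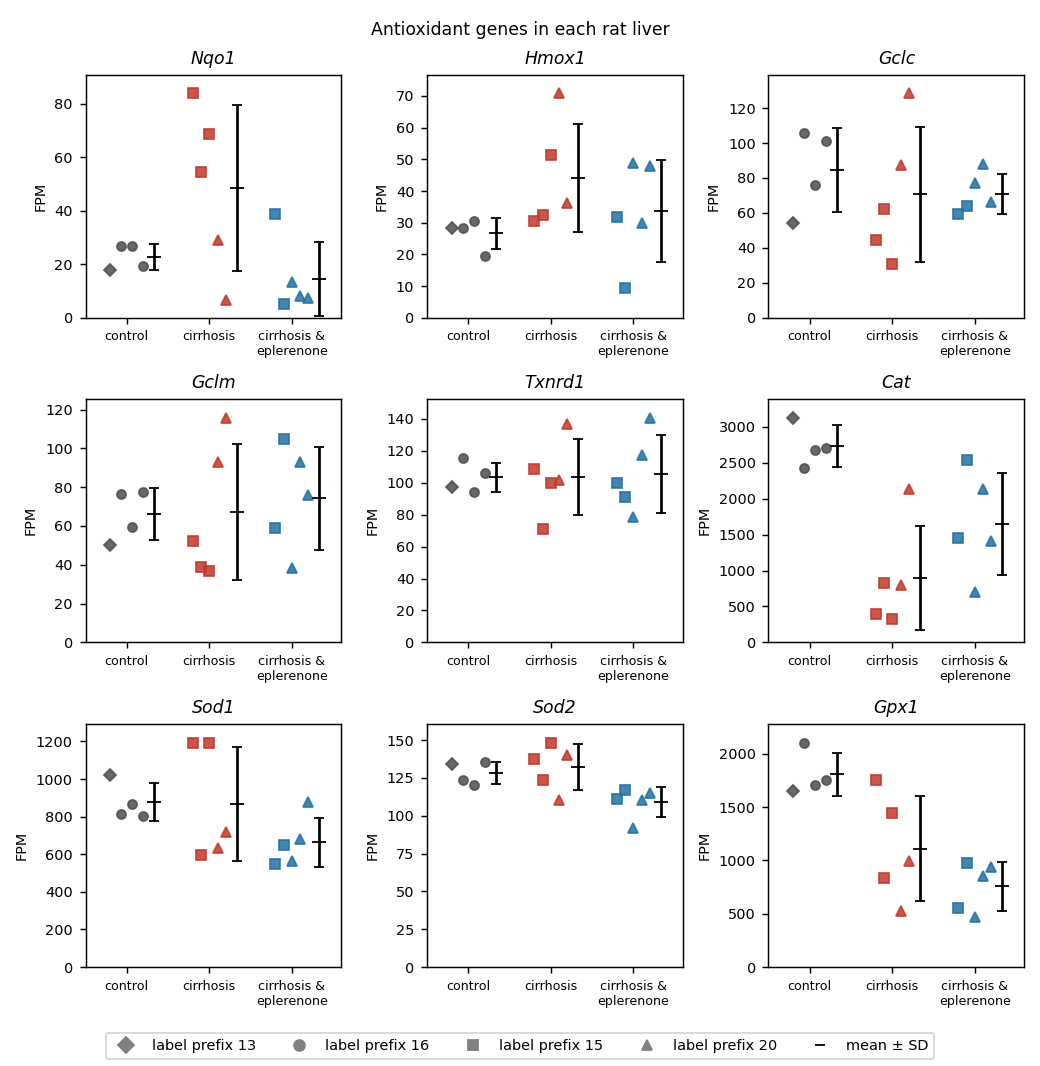
FPM (y axis, linear from 0) of the 9 genes in each rat, with symbols for the label number and bars for the mean ± SD of each group. Cat lies lower in every cirrhosis rat than in any control, while Nqo1 spreads from 6.67 to 83.9 FPM within cirrhosis.

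Catalase, the peroxisomal enzyme that splits hydrogen peroxide, is encoded by Cat (ENSRNOG00000008364, chromosome 3). Cat measured 3126, 2423, 2672 and 2712 FPM in control replicates 2 to 5. In cirrhosis replicates 1 to 5 it measured 397.4, 831.5, 319.4, 796.4 and 2136 FPM. Every cirrhosis rat was below every control, and replicate 5 was far above the rest of its group. Cirrhosis & eplerenone replicates 1 to 5 gave 1450, 2541, 707.3, 2141 and 1417 FPM, overlapping both other groups.

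Mean Cat was 2733 ± 291.4 FPM in control (SD, n = 4) and 896.1 ± 730.2 in cirrhosis (SD, n = 5), with 1651 ± 710.3 under eplerenone (SD, n = 5). Cat fell in cirrhosis by 1.61 on the log2 scale (SE 0.47, 95% interval -2.62 to -0.60), with an adjusted p of 0.0288 by edgeR's quasi-likelihood test and 0.00347 by DESeq2. Without cirrhosis replicate 5 the log2FC was -2.22 with an edgeR adjusted p of 0.00132. The edgeR call was lost without cirrhosis replicate 1, 3 or 4 (log2FC -1.40, -1.39 and -1.56, adjusted p 0.0631, 0.0594 and 0.0602). It was also lost without control replicate 2, 3, 4 or 5 (log2FC -1.54, -1.67, -1.62 and -1.62, edgeR adjusted p 0.0604, 0.0528, 0.0552 and 0.0641).

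Eplerenone-treated rats had a higher mean of Cat than cirrhosis rats, with a log2FC of 0.88 (SE 0.45, 95% interval -0.07 to 1.83) and an edgeR adjusted p of 0.364, which did not pass. Against control the log2FC was -0.73 (95% interval -1.72 to 0.27, edgeR adjusted p 0.423). Without cirrhosis replicate 5 the log2FC against cirrhosis was 1.49 (edgeR adjusted p 0.0765), and leaving out each rat in turn gave 0.66 to 1.49. Rats of label number 15 had mean levels of 516.1 FPM in cirrhosis (n = 3) and 1995 in cirrhosis & eplerenone (n = 2), a log2FC of 1.92. Rats of number 20 had 1466 (n = 2) and 1422 FPM (n = 3), a log2FC of -0.02. The difference between these values was not tested.

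Glutathione peroxidase 1, the abundant cytosolic selenoenzyme that reduces peroxides with glutathione, is encoded by Gpx1 (ENSRNOG00000048812, chromosome 8). Control replicates 2 to 5 had 1652, 2107, 1711 and 1760 FPM of Gpx1. Cirrhosis replicates 1 to 5 had 1760, 839.3, 1443, 521.3 and 993.3, and the cirrhosis & eplerenone rats 555.3, 972.9, 472.4, 858.6 and 940.9. All 5 eplerenone-treated rats were below all 4 controls, while cirrhosis replicate 1 reached the control level.

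Mean Gpx1 was 1808 ± 204.5 FPM in control (SD, n = 4) and 1111 ± 491.6 in cirrhosis (SD, n = 5), with 760.0 ± 230.4 under eplerenone (SD, n = 5). In cirrhosis the log2FC was -0.70 (SE 0.32, 95% interval -1.38 to -0.02), and the edgeR adjusted p of 0.123 did not pass although the interval, which is not adjusted for the number of genes, lay below 0. Gpx1 fell in cirrhosis & eplerenone against control by 1.25 on the log2 scale (SE 0.32, 95% interval -1.93 to -0.57), with adjusted p of 0.0342 by edgeR and 0.00226 by DESeq2. The edgeR call was lost without control replicate 2, 3, 4 or 5 (log2FC -1.29, -1.17, -1.28 and -1.26, adjusted p 0.0656, 0.0976, 0.0733 and 0.0909). It was also lost without cirrhosis & eplerenone replicate 1, 3 or 5 (log2FC -1.14, -1.12 and -1.34, edgeR adjusted p 0.0726, 0.0781 and 0.0511).

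The 2 CCl4-exposed groups were not shown to differ in Gpx1, with a log2FC of -0.55 (95% interval -1.19 to 0.10) and an edgeR adjusted p of 0.389. It was -0.85 within label number 15 and 0.03 within 20. Both comparisons against control share the same 4 control rats. Where reads also fit related sequences the authors counted them at each place, so Gpx1 and Sod1 reads may include some from near-identical copies.

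Against control, cirrhosis & eplerenone gave 1 DEG among the 9 genes, Gpx1, which fell, while 5.2% of all genes were DEG, 4.33% higher and 0.874% lower. Groups did not overlap for 2 of the 9, Gpx1 and Sod2, against 10.9% of all genes. The median log2FC of the 9 genes was -0.25 against 0.01 over all genes.

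Superoxide dismutase 2, the mitochondrial enzyme with manganese, is encoded by Sod2 (ENSRNOG00000019048, chromosome 1). Sod2 measured 134.0, 123.8, 120.1 and 135.4 FPM in control replicates 2 to 5. Cirrhosis rats gave 137.8, 123.4, 148.4, 110.5 and 140.3, and cirrhosis & eplerenone rats 111.3, 116.9, 92.0, 110.7 and 114.9. The eplerenone-treated rats were all below the lowest control, by a small margin. The log2FC was -0.23 against control (95% interval -0.53 to 0.07) and -0.27 against cirrhosis (95% interval -0.56 to 0.01), with edgeR adjusted p of 0.383 and 0.353. Cirrhosis against control gave a log2FC of 0.04 (95% interval -0.26 to 0.34, edgeR adjusted p 0.845). The log2FC of Sod2 between cirrhosis & eplerenone and cirrhosis was -0.29 within label number 15 and -0.22 within 20.

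Sod1 (ENSRNOG00000002115, chromosome 11) encodes the cytosolic copper and zinc superoxide dismutase. It measured 1023, 811.8, 868.4 and 803.7 FPM in control replicates 2 to 5. Cirrhosis gave 1193, 596.1, 1194, 632.5 and 718.7, and cirrhosis & eplerenone 547.2, 650.4, 562.7, 680.6 and 876.2. Within cirrhosis, replicates 1 and 3 lay above every control and the other 3 rats below. The log2FC of Sod1 was -0.02 for cirrhosis against control (95% interval -0.54 to 0.51), with the sign depending on the scaling and filter, and -0.40 for cirrhosis & eplerenone against control (95% interval -0.93 to 0.12). Neither passed, with edgeR adjusted p of 0.970 and 0.396. Between cirrhosis & eplerenone and cirrhosis the log2FC was -0.39 (95% interval -0.88 to 0.11, edgeR adjusted p 0.418), with -0.76 within label number 15 and 0.09 within 20.

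Nqo1 (ENSRNOG00000012772, chromosome 19) encodes NAD(P)H quinone dehydrogenase, widely used as a readout of NRF2 activity. Control replicates 2 to 5 had 17.9, 26.7, 26.9 and 19.4 FPM. Cirrhosis replicates 1 to 5 had 83.9, 54.5, 68.5, 29.0 and 6.67 FPM, and cirrhosis & eplerenone replicates 1 to 5 had 38.8, 5.19, 13.4, 8.01 and 7.38. Cirrhosis replicates 1 to 4 were above every control and replicate 5 was below, while in cirrhosis & eplerenone replicate 1 was above every control and the other 4 below.

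Mean Nqo1 was 22.7 ± 4.72 FPM in control (SD, n = 4) and 48.5 ± 30.9 in cirrhosis (SD, n = 5), with 14.6 ± 13.9 under eplerenone (SD, n = 5). The log2FC in cirrhosis was 1.10 (SE 0.62, 95% interval -0.22 to 2.41), with adjusted p of 0.206 by edgeR and 0.133 by DESeq2. Without cirrhosis replicate 5 it was 1.38, still not called.

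Between cirrhosis & eplerenone and cirrhosis, no gene of the 9 was DEG by edgeR or by DESeq2. An unadjusted edgeR p below 0.05 was found for 1 of the 9, Nqo1, and for 2076 of all 14417 genes. Of all genes 0.0139% were DEG, and groups did not overlap for 0 of the 9 against 0.964% of all genes. The median log2FC of the 9 genes was -0.27 against 0.01 over all genes. Nqo1 had a log2FC of -1.73 (SE 0.59, 95% interval -2.98 to -0.49), larger in size than that of 98.6% of genes tested. Its edgeR p was 0.00955 in the fit across all genes, with adjusted p of 0.312 by edgeR and 0.0886 by DESeq2. Leaving out 1 rat at a time gave log2FC from -2.50, without cirrhosis & eplerenone replicate 1, to -1.46, without cirrhosis replicate 1, and no edgeR call in the 14 fits. Without cirrhosis replicate 5 it was -2.01 (edgeR adjusted p 0.0765).

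A further fit left out cirrhosis replicate 5 and cirrhosis & eplerenone replicate 3. This choice was made with earlier results known, and these 2 rats lay nearest to the other CCl4-exposed group on the first principal component, so the fit is not independent support for a difference between these groups. With these 4 rats per group, 2 of the 9 genes passed between cirrhosis & eplerenone and cirrhosis, against 9.15% of all genes in the same fit. Nqo1 had a log2FC of -2.005 (edgeR adjusted p 0.0386) and Cat of 1.67 (edgeR adjusted p 0.0164). With the same 12 rats Nqo1 in cirrhosis against control had a log2FC of 1.40, with adjusted p of 0.0563 by edgeR and 0.0190 by DESeq2. Gpx1 in cirrhosis & eplerenone against control then had a log2FC of -1.12 and an edgeR adjusted p of 0.0670, no longer called.

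The mean level of Nqo1 also went with the label number. Cirrhosis rats had a mean of 68.9 FPM with 15 (n = 3) and 17.8 with 20 (n = 2), and cirrhosis & eplerenone rats 22.0 (n = 2) and 9.58 FPM (n = 3). With treatment in the fit, the log2FC of 20 against 15 among CCl4-exposed rats was -1.57 for Nqo1 (edgeR p 0.0149, adjusted p 0.638) and 0.78 for Gclc (edgeR p 0.00782, adjusted p 0.486). None of the 9 genes passed by edgeR after adjustment, while 0.0797% of 13795 genes did and 762 had an unadjusted edgeR p below 0.05. DESeq2 was not run for this term. The log2FC of Nqo1 between cirrhosis & eplerenone and cirrhosis was -1.67 within 15 and -0.88 within 20. Within 20 the 2 cirrhosis rats lay on either side of the 3 treated rats, with replicate 4 at 29.0 FPM and replicate 5 at 6.67.

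**Figure D2:**
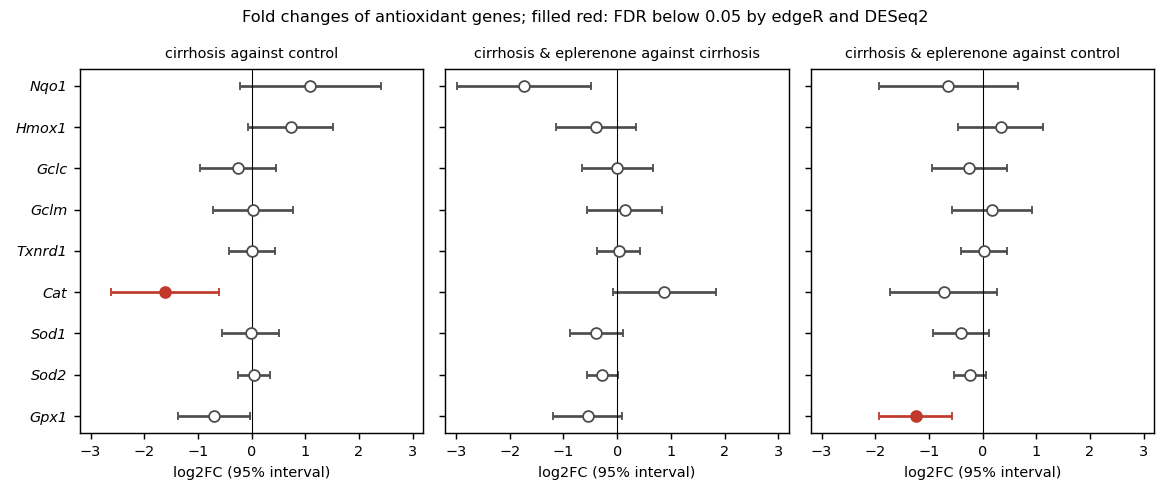
log2FC (x axis) of the 9 genes in the 3 comparisons, with 95% intervals that are not adjusted for the number of genes; filled red points are DEG by edgeR and DESeq2. Cat at -1.61 in cirrhosis and Gpx1 at -1.25 in cirrhosis & eplerenone against control are filled, and the interval of Nqo1 lies below 0 in the middle panel without a call.

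Heme oxygenase 1, which breaks down heme to biliverdin, iron and carbon monoxide, is encoded by Hmox1 (ENSRNOG00000014117, chromosome 19). Hmox1 measured 28.2, 28.2, 30.6 and 19.6 FPM in control replicates 2 to 5 and 30.4, 32.3, 51.5, 70.9 and 36.1 in cirrhosis replicates 1 to 5. In cirrhosis & eplerenone it measured 31.7, 9.45, 48.9, 30.0 and 47.9 FPM. Only cirrhosis replicate 1 lay inside the control range, while the other 4 cirrhosis rats were above it. The log2FC was 0.73 in cirrhosis (SE 0.37, 95% interval -0.06 to 1.52), with adjusted p of 0.166 by edgeR and 0.124 by DESeq2. Between cirrhosis & eplerenone and cirrhosis it was -0.40 (95% interval -1.13 to 0.34, edgeR adjusted p 0.564), with -0.91 within label number 15 and -0.32 within 20. Against control it was 0.33 (95% interval -0.45 to 1.12, edgeR adjusted p 0.687).

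Gclc and Gclm encode the catalytic and the modifier subunit of glutamate cysteine ligase, the first step of glutathione synthesis. Gclc (ENSRNOG00000006302, chromosome 8) measured 54.4, 106.0, 75.9 and 101.2 FPM in control replicates 2 to 5. Cirrhosis gave 44.8, 62.4, 30.5, 87.4 and 128.5, and cirrhosis & eplerenone 59.4, 63.7, 77.3, 87.8 and 66.4. The groups overlapped, and within cirrhosis replicates 4 and 5 were higher than the other 3. The log2FC was -0.26 in cirrhosis (95% interval -0.96 to 0.45), 0.0046 between cirrhosis & eplerenone and cirrhosis (95% interval -0.66 to 0.67) and -0.25 between cirrhosis & eplerenone and control (95% interval -0.95 to 0.45). The sign against control turned positive when samples were scaled by total counts. Without cirrhosis replicate 5 the first was -0.58 and the second 0.33. The second was 0.40 within label number 15 and -0.46 within 20.

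Gclm (ENSRNOG00000013409, chromosome 2), whose promoter holds the ARE letters printed above, measured 50.1, 76.5, 59.7 and 77.6 FPM in control replicates 2 to 5. It measured 52.1, 38.9, 36.7, 92.7 and 115.7 FPM in cirrhosis and 59.0, 104.9, 38.5, 93.0 and 76.1 in cirrhosis & eplerenone. As for Gclc, cirrhosis replicates 4 and 5 were the high ones. The log2FC was 0.03 in cirrhosis (95% interval -0.71 to 0.77), 0.14 between cirrhosis & eplerenone and cirrhosis (95% interval -0.55 to 0.84) and 0.17 between cirrhosis & eplerenone and control (95% interval -0.57 to 0.91). Without cirrhosis replicate 5 the first was -0.26 and the second 0.43. The second was 0.92 within label number 15 and -0.57 within 20.

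The count ratio of Gclc to Gclm, in which gene length is fixed, was 1.26 ± 0.13 in control (SD, n = 4) and 1.07 ± 0.32 in cirrhosis (SD, n = 5), with 1.09 ± 0.54 under eplerenone (SD, n = 5). It ranged from 1.084 to 1.386 in control, from 0.830 to 1.60 in cirrhosis and from 0.607 to 2.01 under eplerenone, so the ranges overlapped.

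Txnrd1 (ENSRNOG00000009088, chromosome 7) encodes the cytosolic thioredoxin reductase, and 1 of its 2 promoters holds the ARE letters. Txnrd1 measured 97.5, 115.2, 94.5 and 106.1 FPM in control replicates 2 to 5. Cirrhosis gave 108.5, 70.7, 100.1, 101.8 and 137.0, and cirrhosis & eplerenone 100.1, 91.0, 78.6, 117.1 and 140.6. Means of Txnrd1 were 103.3, 103.6 and 105.5 FPM in control, cirrhosis and cirrhosis & eplerenone, and the 3 log2FC were 0.0036, 0.026 and 0.029 (95% intervals -0.42 to 0.43, -0.38 to 0.43 and -0.40 to 0.46 for cirrhosis against control, cirrhosis & eplerenone against cirrhosis, and cirrhosis & eplerenone against control). All 3 intervals lay within 1 log2 unit of 0. The log2FC of Txnrd1 between cirrhosis & eplerenone and cirrhosis was 0.011 within label number 15 and -0.067 within 20.

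**Figure D3:**
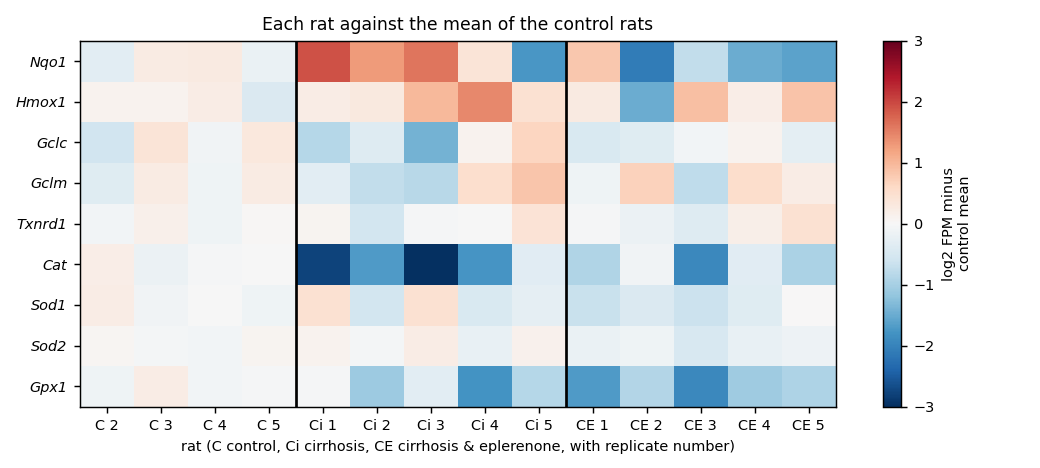
log2 FPM of the 9 genes in each rat minus the mean of the 4 control rats (colour scale, blue lower and red higher), with rats in columns by group. Cat is blue in cirrhosis replicates 1 to 4 and close to the controls in cirrhosis replicate 5, whose Nqo1 is also opposite in sign to the rest of the group.

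The wider pathway was described by 5 lists of 70 genes, of which 65 were tested. The lists were chosen with earlier results of these data known, so a share above that of all genes is not independent support. Of the 65 genes, 22 were DEG in cirrhosis, 20 higher and 2 lower, which is 33.8% against 20.1% of all genes. The median log2FC of the 65 was 0.21 against -0.01 over all genes. In cirrhosis & eplerenone against control 8 were DEG, all higher (12.3% against 5.2% of all genes), and between cirrhosis & eplerenone and cirrhosis none was DEG by edgeR or DESeq2, with a median log2FC of -0.22. In that last comparison 10 had an unadjusted edgeR p below 0.05, as did 2076 of all 14417 genes. The 22 became 13 without control replicate 3 or 5, 14 without control replicate 4 or cirrhosis replicate 3, and 27 without cirrhosis replicate 5. The 8 became 5, 1, 4 and 0 without control replicate 2, 3, 4 and 5, 5 without cirrhosis & eplerenone replicate 3 or 5, and 13 without its replicate 2.

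Of 10 regulators of NRF2, 2 were DEG in cirrhosis and both rose, against 20.1% of all genes DEG and 13.4% higher. In value 7 of the 10 were lower, with a median log2FC of -0.17. The 2 that rose were Maff and Mafk, small MAF partners of NRF2. Both also rose in cirrhosis & eplerenone against control, where 4.33% of all genes rose. Maff had 1.09 ± 0.44 FPM in control (SD, n = 4) and rose to 11.1 ± 12.7 in cirrhosis and 7.46 ± 3.39 under eplerenone (SD, n = 5 each), log2FC 3.33 and 2.76. Mafk rose from 14.96 ± 2.94 to 25.8 ± 6.13 and 30.1 ± 6.39 FPM, log2FC 0.79 and 1.01. Neither group of CCl4-exposed rats overlapped the controls for these genes.

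Nfe2l2, which encodes NRF2, measured 109.5 ± 15.6 FPM in control, 99.1 ± 34.5 in cirrhosis and 84.9 ± 6.23 under eplerenone (SD, log2FC -0.14 and -0.37 against control, edgeR adjusted p 0.665 and 0.407). Keap1, its inhibitor, measured 60.0 ± 3.96, 56.2 ± 5.37 and 51.0 ± 7.32 FPM (log2FC -0.09 and -0.23 against control, edgeR adjusted p 0.634 and 0.371). Bach1, a repressor that competes for the same elements, measured 10.9 ± 4.47, 3.39 ± 3.43 and 8.24 ± 4.46 FPM. Its log2FC in cirrhosis was -1.68, with adjusted p of 0.0794 by edgeR and 0.0364 by DESeq2, so it was not called.

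Of 19 tested genes among other NRF2 targets and genes of glutathione or NADPH supply, 5 rose and 1 fell in cirrhosis. Of all genes 13.4% rose and 6.67% fell. Those above 2-fold were Ggt1, Abcc3, Cbr1 and Ephx1. Ggt1, the cell surface enzyme that cleaves glutathione, had 0.0636 to 2.54 FPM in control and 1.43 to 34.7 in cirrhosis (log2FC 4.22). The lowest control was below the limit of detection, and the groups overlapped. Abcc3, an export pump for conjugates, had 1.78 to 3.36 FPM in control, 6.84 to 59.3 in cirrhosis and 4.51 to 36.5 under eplerenone (log2FC 3.13 and 2.57). Cbr1, a carbonyl reductase, had 0.405 to 1.28 FPM in control and 2.73 to 4.46 in cirrhosis (log2FC 1.86). Ephx1, the microsomal epoxide hydrolase, had a log2FC of 1.02 and passed narrowly by edgeR (adjusted p 0.0490). Its cirrhosis replicate 4 had 2763 FPM and the others 1126 to 1485. The gene that fell, named after its values were seen, was Idh1, a cytosolic source of NADPH (log2FC -0.77).

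Of 23 tested genes among other peroxidases, dismutases and thiol reductases, 9 rose and 1 fell in cirrhosis, where 13.4% and 6.67% of all genes did. In cirrhosis & eplerenone against control 3 rose, against 4.33% of all genes. Gpx3, the secreted glutathione peroxidase, had 12.0 ± 1.05 FPM in control (SD, n = 4) and rose to 147.7 ± 89.8 in cirrhosis and 69.7 ± 48.7 under eplerenone (SD, n = 5 each), log2FC 3.62 and 2.54. Gpx2, an epithelial family member, had 1 to 7 counts in each control rat and 0.774 to 7.49 FPM in cirrhosis, with log2FC of 4.19 and 3.87 that depend on the prior count at such low control levels. The third was Gpx7 (log2FC 2.10), named after its values were seen. The metallothioneins Mt2A and Mt1, which bind zinc and copper, rose in cirrhosis with log2FC of 3.10 and 2.58, and for both cirrhosis replicate 5 was not above every control. The gene that fell was Sod3, the extracellular dismutase (log2FC -1.12), also named after its values were seen.

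Of 7 tested genes of NADPH oxidase and xanthine oxidase, 4 rose in cirrhosis, where 13.4% of all genes rose and 6.67% fell. These 4 are all parts of the phagocyte oxidase that makes superoxide. Cyba and Ncf1 rose by log2FC of 2.07 each, Rac2 by 1.64 and Cybb by 1.15. Cybb and Ncf1 also rose in cirrhosis & eplerenone against control, where 4.33% of all genes rose, with log2FC of 1.16 and 1.59. In value 5 of the 7 were higher in cirrhosis and 2 lower, Nox4 and Xdh. Nox4 had a log2FC of -2.02 (edgeR adjusted p 0.113) and Xdh of -0.59 (edgeR adjusted p 0.0705). Neither was called, although the groups did not overlap for Xdh, and both were named after their values were seen. The summed level of 8 Kupffer cell and macrophage markers was 237.5 to 420.0 FPM in control, 92.9 to 398.4 in cirrhosis and 186.3 to 490.1 under eplerenone, none at 0 in any rat, and 1 of the 8, Cd163, fell in cirrhosis (log2FC -1.22). Of the 8, 3 were higher in value and 5 lower, with Cd68 at a log2FC of 0.74 (adjusted p 0.0573 by edgeR and 0.0292 by DESeq2) and Csf1r at 0.59 (edgeR adjusted p 0.0887), neither called. These 3 markers were named after their values were seen. Lymphocyte markers summed to 2.20 to 3.98, 4.52 to 11.9 and 2.75 to 8.52 FPM, with 3 of 5 tested higher in cirrhosis (Cd3e, Cd3d and Nkg7), and Cd3e was at 0 in 1 of 14 rats. The part of these cells in the oxidase result was not tested.

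Of 6 genes of heme handling, 0 were DEG in cirrhosis, against 20.1% of all genes. By DESeq2 alone 1 passed, and 1 had an unadjusted edgeR p below 0.05, against 4007 and 5351 of all 14417 genes. Of 5 genes of phenobarbital and CCl4 metabolism, 1 was DEG in cirrhosis, Nr1i3, the receptor through which phenobarbital acts, and it fell (log2FC -1.51). Cyp2b1, a cytochrome P450 that phenobarbital induces, had 1.40 to 5.07 FPM in control, 14.4 to 1067 in cirrhosis and 19.2 to 736.8 under eplerenone. Its log2FC in cirrhosis was 6.06, with an edgeR adjusted p of 0.0223 and no adjusted p from DESeq2, so it was not called although the groups did not overlap. Of the 5 genes 4 were higher in value, and both genes were named after their values were seen.

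**Figure D4:**
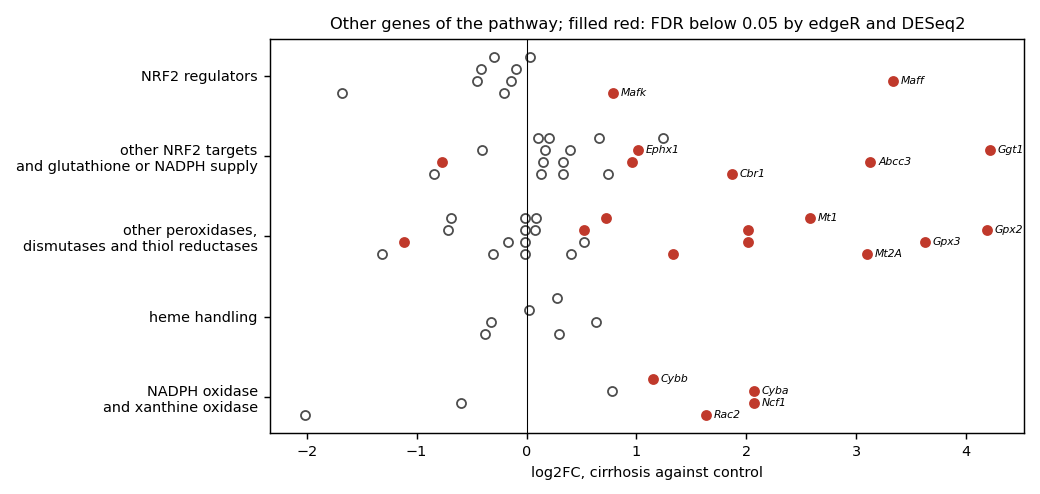
log2FC between cirrhosis and control (x axis) of the 65 tested genes in the 5 pathway lists (rows); filled red points are DEG by edgeR and DESeq2. Of the 22 filled points 20 lie above 0, led by Ggt1, Gpx2, Gpx3 and Maff.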

How the data were processed

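Liver poly(A) RNA was sequenced by the authors with paired reads of 150 bp, mapped to rn6 with HISAT2 2.1.0 and counted per gene over exons with featureCounts, multi-mapping reads included. The strand setting is not given in the sources used here. The deposited table holds raw counts, not normalized, for 32623 genes (11341 without a count) and 14 of 15 labelled samples. Control replicate 1 was not analysed here.

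Samples were grouped by the sample labels. Counts were filtered with filterByExpr (smallest count 10), scaled by TMM and fitted for the 3 groups in 1 model with edgeR 4.0.16 (quasi-likelihood test) and DESeq2 1.42.0 (Wald test) in R 4.3.3. Benjamini-Hochberg adjustment of the p-values covered 14417 genes, and a DEG had an FDR below 0.05 in both. The log2FC values are from edgeR. The SE was derived as the absolute log2FC divided by the square root of edgeR's F statistic. The 95% intervals were built from this SE with a t quantile at edgeR's total degrees of freedom. An adjusted p that DESeq2 left empty was treated as not called. The steps were tested on simulated data.

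The members and lists were chosen with earlier results of these data known. Beside the members, genes of the pathway lists were named when they were DEG in any comparison with an absolute log2FC of at least 1 (at most 4 per list), and Nfe2l2, Keap1 and Bach1 always. Alternatives changed the tool, the scaling, the filter, the samples fitted and the block by replicate number, and left out each rat in turn. The comparisons within a label number were chosen after seeing the data. Gene length was not corrected for, so levels are compared within a gene.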

Additional observations from a re-analysis of the deposited data

Results flagged for a closer look

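Within groups of 4 or 5 rats, a gene was listed here when its highest or lowest rat stood apart by Dixon's 95% criterion. Of 69 groups (23 genes) 7 met it, where chance gives about 1 in 20. Among the members, Nqo1 in cirrhosis & eplerenone replicate 1 was the highest at 38.8 FPM, with the other 4 rats at 5.19 to 13.4. Cat in cirrhosis replicate 5 was the highest at 2136 FPM, with the others at 319.4 to 831.5. Sod2 in cirrhosis & eplerenone replicate 3 was the lowest at 92.0 FPM, with the others at 110.7 to 116.9.

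Among the other genes of the pathway, cirrhosis replicate 4 was the highest of its group for Maff at 33.4 FPM (others 2.44 to 8.95) and for Ephx1 at 2763 FPM (others 1126 to 1485). Mt1 in control replicate 4 was the highest at 95.7 FPM (others 31.7 to 38.5). Ncf1 in cirrhosis replicate 5 was the lowest at 10.4 FPM (others 21.5 to 24.9).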

How the results depend on the processing

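Of 648 values of the log2FC of a member under an alternative, 575 kept direction and side of the threshold, 55 reversed, 16 lost and 2 gained the call. The log2FC of Sod1 in cirrhosis against control reversed to 0.013 by DESeq2, 0.013 with RLE factors, 0.24 with total counts, 2.6e-05 without a filter, 0.041 with at least 10 counts in every sample, 0.00062 with only the groups compared and 0.067 with 4 rats per group. Gclc between cirrhosis & eplerenone and cirrhosis reversed to -0.0068 by DESeq2, -0.0067 with RLE factors, -0.0048 with at least 10 counts in every sample, -0.032 with the label number as a term and -0.46 within number 20. Total counts, which move the median log2FC of all genes from -0.01 to 0.28 in cirrhosis and from 0.01 to 0.32 in cirrhosis & eplerenone against control, gave 0.052 for Gclc in cirrhosis and 0.079 for Gclc and 0.069 for Sod2 in cirrhosis & eplerenone against control. The share of DEG that were higher went from 66.8% to 89.5% in cirrhosis and from 83.2% to 95% in cirrhosis & eplerenone against control. With 4 rats per group Gclm and Txnrd1 in cirrhosis reversed to -0.24 and -0.10. Between cirrhosis & eplerenone and cirrhosis, Txnrd1 reversed to -0.029 with the label number as a term, and within number 20 Gclm, Txnrd1, Cat, Sod1 and Gpx1 gave -0.57, -0.067, -0.017, 0.088 and 0.027. The cause was not tested.

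Deviations from the group mean had correlations of -0.351 to 0.206 between same-numbered rats of different groups (13 pairs, over 0.1 in 4). Differently numbered pairs were not compared, so this check does not show whether same-numbered rats belong together. With the replicate block, Gclm and Txnrd1 in cirrhosis gave -0.045 and -0.038 and Txnrd1 in cirrhosis & eplerenone against control -0.0056, and Gpx1 in the latter gave -1.28 with an edgeR adjusted p of 0.1001, so DEG among members were 0 there. The block left 14 pathway genes and 1742 of all genes in cirrhosis, 2 and 268 in cirrhosis & eplerenone against control, and 0 of all genes between cirrhosis & eplerenone and cirrhosis.

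Counts of DEG over all genes were 2898, 2 and 750 in cirrhosis against control, cirrhosis & eplerenone against cirrhosis and cirrhosis & eplerenone against control. For the second they were 74 by DESeq2, 1292 with 4 rats per group, 23 within number 15 and 0 within 20. For the third they were 1523 by DESeq2, 1348 with total counts and 377 with at least 10 counts in every sample, with pathway counts of 13, 14 and 5. With 4 rats per group DEG were 4821 in cirrhosis over all genes, 2 members and 8 pathway genes between cirrhosis & eplerenone and cirrhosis, and 0 members in cirrhosis & eplerenone against control.

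Leaving out each rat in turn gave 0 to 1 members, 13 to 27 pathway genes and 1360 to 4598 genes in cirrhosis against control, 0 to 26 genes between cirrhosis & eplerenone and cirrhosis, and 0 to 1 members, 0 to 13 pathway genes and 220 to 1273 genes in cirrhosis & eplerenone against control. Over all genes the lowest counts in the comparisons with control came without control replicate 5, and the highest without cirrhosis replicate 5 in cirrhosis and without cirrhosis & eplerenone replicate 2 in the other. The log2FC ranges were -2.22 to -1.39 for Cat, -0.26 to 0.18 for Gclm, -0.12 to 0.12 for Txnrd1, -0.16 to 0.10 for Sod1 and -0.0011 to 0.11 for Sod2 in cirrhosis. Between cirrhosis & eplerenone and cirrhosis they were -0.19 to 0.33 for Gclc, -0.014 to 0.43 for Gclm, 0.66 to 1.49 for Cat and -0.10 to 0.15 for Txnrd1. Against control they were -0.10 to 0.12 for Txnrd1 and -1.35 to -1.12 for Gpx1 in cirrhosis & eplerenone. With 4 or 5 rats a group, the 95% intervals printed with each member limit what differences could be seen.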
